A study of Rattus norvegicus with 12 samples.

Results

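The genes described here encode the chaperones, folding enzymes, degradation factors and channel subunits of the endoplasmic reticulum (ER), with the sensors and transcription factors of its stress response. They were 35 genes listed by name, and 31 of them could be tied to a probe on the arrays, among 36102 probes tested of 41012 in all. Of the 31, 25 were found under the array's own gene names (with Armet for Manf) and 6 under an older array name for the same gene: Tra1 for Hsp90b1, Sel1h for Sel1l, RGD1563633 for Edem1, RGD1311835 for Derl1, RGD1559716 for Ern1 and Myd116 for Ppp1r15a. No probe was matched here for Sdf2l1, Derl2, Derl3 and Xbp1. The tested genes comprised 15 chaperones and folding enzymes, 5 genes of ER-associated degradation, 4 of the translocon and 7 stress sensors and transcription factors. Where a gene had several probes, the brightest was used.

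The study measured prostate RNA of male rats aged 10 weeks on 12 Agilent arrays, 3 in each of 4 groups. The obstruction/Eviprostat rats had a rubber ring tied around the urethra below the bladder and, from the next day, received 18 mg/kg Eviprostat, a plant preparation used for benign prostatic hyperplasia, 2 times a day (36 mg/kg daily) for 5 days. The obstruction/vehicle rats had the same ring and received 0.1% Tween 80. The sham/Eviprostat and sham/vehicle rats had a sham operation and the same dosing, which began 5 days after the operation, so operation and time since surgery cannot be told apart. All prostates were taken 2 h after the last dose. Each group had 5 or 6 animals, whose tissue was pooled before labelling, and the labels call the 3 arrays of a group biological replicates. The p-values measure how these arrays vary, which may be technical.

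Every array set RNA of its own group, in Cy5, against sham/vehicle RNA, in Cy3, with no dye swap. The values below are log2 ratios of Cy5 over Cy3 after background correction and loess, a ratio of 0 meaning the level of the sham/vehicle RNA on the same array. Groups were compared with the sham/vehicle arrays and not with 0. Per the labels, 1500 ng of sham/vehicle RNA and 300 ng of each other group's RNA were labelled, so the amount labelled and the contrast with sham/vehicle cannot be told apart. Each slide held 1 array of every group, always at the same place on the slide, so place and group cannot be told apart. Between 70.9% and 88.4% of the spots of an array exceeded the Cy5 background clearly, and slide 1, which carries replicate 1 of each group, was the dimmest by median Cy5 and was scanned on another day. All 31 genes were well above background, and none was saturated in Cy5, on all 3 arrays of each group. Of 12 tested luminal epithelial markers (among them Pbsn, Msmb and Krt8), 10 were well above background on all 12 arrays. So were 10 of 11 macrophage, 7 of 7 fibroblast, 4 of 4 smooth muscle, 6 of 6 skeletal muscle and 5 of 6 seminal vesicle markers. The same held for 4 of 4 urothelial markers, but for only 2 of 6 plasma and B cell markers. These counts cover tested markers, already required to be well above background on at least 3 arrays. They leave out undetected markers: 8 plasma and B cell genes were on the array. Of the 36102 probes tested, 27001 were well above background on all 12 arrays, which is 65.8% of all 41012 probes. Apart from the plasma and B cell markers, the prostate label is thus not set apart by detection of tested markers from the other tissues on these lists.

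Proteins that a cell secretes or places in its membranes enter the ER through the Sec61 channel, fold with the help of the Hsp70-type chaperone BiP (Hspa5) and its J-domain partners, form disulfide bonds through the protein disulfide isomerases, and are sent for degradation if they fail to fold. Unfolded protein in the ER activates the sensors IRE1 (Ern1), PERK (Eif2ak3) and ATF6. IRE1, through splicing of Xbp1, and ATF6 are known to drive chaperone and degradation genes, whereas PERK slows translation by phosphorylating eIF2alpha and acts through Atf4 on Ddit3 (CHOP), Trib3 and Ppp1r15a (GADD34). The kinases GCN2, PKR and HRI phosphorylate the same factor, so the Atf4 targets also answer to stresses outside the ER. Prostate epithelium is a secretory tissue, and its ER carries a heavy load of exported protein.

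Promoter sequences are shown because the chaperone and degradation genes are classically described by their ER stress elements, and because genes with and without such elements differed between the groups. RefSeq promoter windows on build GRCr8, from 250 bases before to 50 bases after the annotated start, were found for 28 of the 35 genes. The ER stress element was searched as CCAAT and CCACG with 9 free bases between them, and the ER stress element II as ATTGG and CCACG with 1 free base between them, both on either strand. The first was found in 8 of the 28 windows, 28.6%, against 21 of 27457 genes with a window, 0.0765%. The 8 genes were Hspa5, Hsp90b1, Dnajc3, Calr, Canx, Creld2, Derl3 and Xbp1. The second was found in 3 of the 28, 10.7%, against 17 of 27457, 0.0619%, and the 3 were Hyou1, Dnajb11 and Herpud1. Since these genes are classically described by these elements, the excess over all genes was largely set beforehand and is no result of these data. Both elements hold the letters CCACG, and no window of these genes held both. The core of the XBP1-type element, TGACGTGG, stood in the windows of Hyou1 and Dnajc10, 7.14% of the 28 against 0.681% of all, and overlapped an ER stress element II in Hyou1. The core of the C/EBP-ATF response element, TGATGCAA, stood in the window of Herpud1 alone, 3.57% against 0.827%.

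The 250 bases before the start of 6 genes are given 5′ to 3′ on the gene's strand, with the fixed letters of any match to the 4 patterns in capitals and the free letters between them in lower case. The first 4 genes were higher under Eviprostat in the obstructed rats, Hspa5 is the classical gene of the response, and Ppp1r15a, in whose window no pattern was found, was the most raised of the 31 genes in obstruction. They lie at chr8:53602632-53602881, plus strand (Hyou1, the more upstream of 2 RefSeq starts), chr15:102432417-102432666, plus strand (Dnajc3), chr7:121789134-121789383, plus strand (Creld2), chr19:10614708-10614957, minus strand (Herpud1), chr3:38452766-38453015, plus strand (Hspa5) and chr1:105139597-105139846, minus strand (Ppp1r15a). A match is a description of the letters and not of a factor bound there. The printed genes do not stand for all. Dnajb9 and Sec61b, with no pattern in their windows, were also higher under Eviprostat in the obstructed rats. Hspa5, Hsp90b1, Calr and Canx, which hold the first element, did not pass there.
Hyou1: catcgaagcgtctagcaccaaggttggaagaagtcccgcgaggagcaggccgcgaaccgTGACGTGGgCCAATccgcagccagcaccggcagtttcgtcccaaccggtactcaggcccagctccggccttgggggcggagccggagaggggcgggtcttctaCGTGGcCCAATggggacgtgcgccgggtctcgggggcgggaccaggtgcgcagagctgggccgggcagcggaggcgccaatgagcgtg
Dnajc3: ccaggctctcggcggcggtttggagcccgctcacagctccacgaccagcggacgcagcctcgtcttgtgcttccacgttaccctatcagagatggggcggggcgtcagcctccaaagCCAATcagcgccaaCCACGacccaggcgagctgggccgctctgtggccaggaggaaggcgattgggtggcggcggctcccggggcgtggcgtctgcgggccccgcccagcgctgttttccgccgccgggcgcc
Creld2: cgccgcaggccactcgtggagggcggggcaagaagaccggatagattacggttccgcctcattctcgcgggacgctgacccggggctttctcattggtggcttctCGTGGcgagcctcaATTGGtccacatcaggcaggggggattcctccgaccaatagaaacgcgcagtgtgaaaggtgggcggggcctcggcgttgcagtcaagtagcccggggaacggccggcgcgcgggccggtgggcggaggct
Herpud1: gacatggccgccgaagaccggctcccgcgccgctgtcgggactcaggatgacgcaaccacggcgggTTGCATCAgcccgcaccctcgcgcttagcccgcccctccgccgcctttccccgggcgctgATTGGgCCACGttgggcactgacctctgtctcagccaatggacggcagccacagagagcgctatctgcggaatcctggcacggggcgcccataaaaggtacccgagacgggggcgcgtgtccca
Hspa5: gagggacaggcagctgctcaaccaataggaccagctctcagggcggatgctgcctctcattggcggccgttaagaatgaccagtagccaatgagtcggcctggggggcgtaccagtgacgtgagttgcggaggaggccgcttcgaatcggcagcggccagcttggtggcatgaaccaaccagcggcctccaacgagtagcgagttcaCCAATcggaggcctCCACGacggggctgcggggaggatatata
Ppp1r15a: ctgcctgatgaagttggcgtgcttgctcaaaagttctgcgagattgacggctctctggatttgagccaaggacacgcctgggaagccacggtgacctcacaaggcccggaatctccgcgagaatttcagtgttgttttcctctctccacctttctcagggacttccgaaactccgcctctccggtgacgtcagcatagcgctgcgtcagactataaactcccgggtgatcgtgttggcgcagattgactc

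The first comparison asked what obstruction does under vehicle. Of the 15 chaperones 5 were lower, 0 higher and 10 did not pass, and of the 7 stress genes 3 were higher and 2 lower. Ppp1r15a, Trib3 and Ddit3 were between 2.15-fold and 2.8-fold higher in obstruction/vehicle than in sham/vehicle, while the chaperones Hyou1, Manf, Dnajc10, Dnajc3 and Pdia3, the translocon subunit Sec61b and the sensors Ern1 and Atf6 were between 1.3-fold and 1.72-fold lower. In all, 3 of the 31 genes were higher and 8 lower at an adjusted p under 0.05 (limma, Benjamini-Hochberg over all 36102 probes), against 7.15% of all probes higher and 4.45% lower (11.6% in either direction). The split depended on the scaling: it was 3 higher and 0 lower with median centring in place of loess, and 5 higher and 18 lower with the scanner software's log ratio. With the replicate number as a block it was 4 higher and 15 lower. Of all 36102 probes, 1613 were higher and 175 lower with median centring. The scanner's log ratio gave 5930 higher and 8553 lower, and the block 4815 and 4310.

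**Figure D1:**
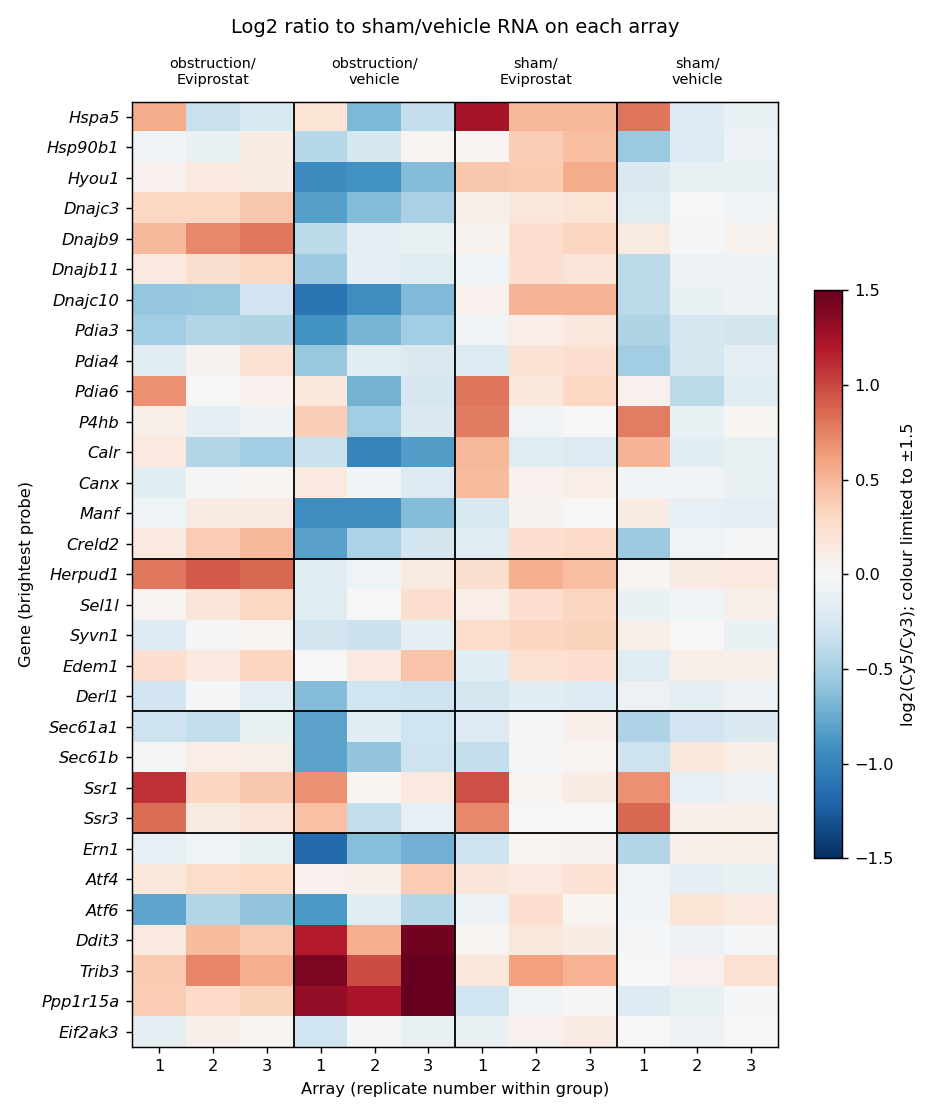
Log2 ratio of Cy5 over Cy3 for the 31 genes (rows) on each of the 12 arrays (columns, grouped as labelled, replicates 1 to 3 from left to right), red above and blue below the sham/vehicle RNA; lines separate chaperones, degradation genes, translocon genes and stress genes, from top to bottom. The obstruction/vehicle columns are blue for most chaperones and red for Ddit3, Trib3 and Ppp1r15a. Replicate 1 is redder or less blue than replicates 2 and 3 in all 4 groups for Hspa5, Pdia6, P4hb, Calr, Ssr1 and Ssr3.

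Ppp1r15a encodes the regulatory subunit that directs protein phosphatase 1 to phosphorylated eIF2alpha. Its log2 ratio was 1.32, 1.23 and 1.58 on the obstruction/vehicle arrays, against -0.19, -0.11 and -0.02 on the sham/vehicle arrays. All 3 obstruction/vehicle arrays lay above all 3 sham/vehicle arrays, and the difference was 1.48 ± 0.11, adjusted p = 3.99e-06 (its probe lies on chromosome 1, 96072506 to 96073008 on build rn3). Trib3, a pseudokinase induced by Atf4 and Ddit3, had 1.41, 0.98 and 1.88 in obstruction/vehicle and -0.01, 0.07 and 0.23 in sham/vehicle. The groups did not overlap (1.33 ± 0.20, adjusted p = 0.000863). Ddit3, the pro-apoptotic transcription factor CHOP, had 1.18, 0.54 and 1.45 in obstruction/vehicle and -0.03, -0.09 and -0.02 in sham/vehicle. Its groups did not overlap either (1.104 ± 0.18, adjusted p = 0.00181), and for both Ddit3 and Trib3 replicate 2 was the lowest of the obstruction/vehicle arrays. These 3 calls were kept in each of the 21 other settings that were run, median centring and each left-out array included.

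Atf4 itself, the translationally induced factor upstream of the 3, did not pass the test. It had 0.06, 0.08 and 0.39 in obstruction/vehicle and -0.05, -0.14 and -0.12 in sham/vehicle, a difference of 0.28 ± 0.10, adjusted p = 0.0864. The arrays did not overlap, and the block for replicate number gave an adjusted p of 0.0297. The PERK gene Eif2ak3 had -0.30, -0.03 and -0.11 in obstruction/vehicle and -0.0022, -0.07 and -0.01 in sham/vehicle, with groups that overlapped (-0.12 ± 0.10, adjusted p = 0.522).

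The other sensors were lower. Ern1 had -1.17, -0.64 and -0.72 in obstruction/vehicle, against -0.44, 0.07 and 0.09 in sham/vehicle, with no overlap (-0.75 ± 0.17, adjusted p = 0.0136). Replicate 1 stood lowest in both groups, and the difference was of like size on each slide (-0.73, -0.71 and -0.81). Atf6 had -0.86, -0.16 and -0.44 in obstruction/vehicle and -0.04, 0.21 and 0.15 in sham/vehicle (-0.59 ± 0.16, adjusted p = 0.0372). Its groups did not overlap, although obstruction/vehicle replicate 2 lay closer to the sham/vehicle arrays than to replicate 1. Ern1 no longer passed without obstruction/vehicle replicate 1, sham/vehicle replicate 2 or sham/vehicle replicate 3 (adjusted p from 0.0533 to 0.0697). Atf6 lost it without those 3 and also without obstruction/vehicle replicate 3, obstruction/Eviprostat replicate 3 or sham/Eviprostat replicate 3 (adjusted p from 0.0544 to 0.138).

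**Figure D2:**
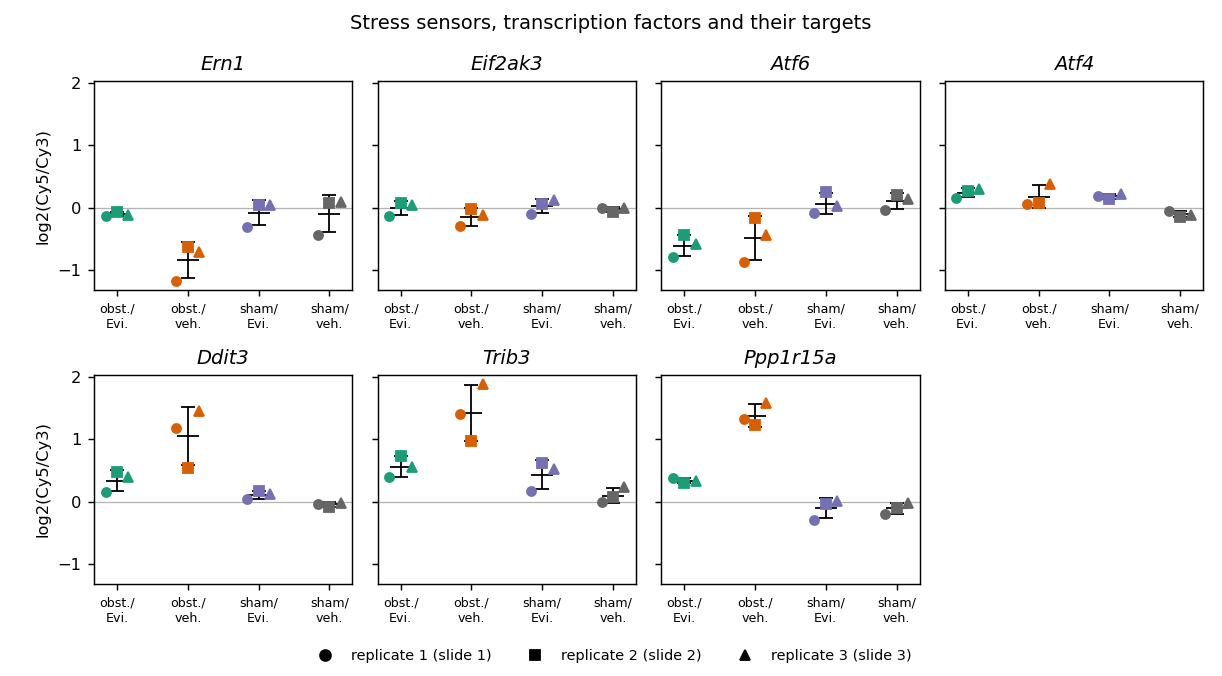
Log2 ratio of Cy5 over Cy3 on each array for the 7 stress sensors, transcription factors and targets with a probe; symbols mark the replicate and its slide, and bars the mean ± SD of the 3 arrays. Ddit3, Trib3 and Ppp1r15a are high in obstruction/vehicle and intermediate in obstruction/Eviprostat, Ern1 is low in obstruction/vehicle alone, and Atf6 is low in both obstruction groups.

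Among the chaperones, Hyou1 encodes the ER chaperone ORP150, which exchanges the nucleotide of BiP. Its log2 ratio was -0.95, -0.91 and -0.65 in obstruction/vehicle, against -0.21, -0.11 and -0.11 in sham/vehicle. The groups lay far apart (-0.69 ± 0.09, adjusted p = 0.000481; the probe lies on chromosome 8, 47367551 to 47367610, build rn3). A second, dimmer Hyou1 probe gave a smaller difference that did not pass (-0.21, adjusted p = 0.181). Manf, a small ER protein that is secreted under stress, had -0.93, -0.94 and -0.64 in obstruction/vehicle and 0.11, -0.12 and -0.14 in sham/vehicle (-0.78 ± 0.12, adjusted p = 0.00091). Its groups did not overlap, and its other probe again moved less (-0.37, adjusted p = 0.219). Dnajc3, the J-domain co-chaperone p58IPK that also restrains PERK, had -0.82, -0.65 and -0.49 in obstruction/vehicle and -0.18, -0.0044 and -0.05 in sham/vehicle (-0.57 ± 0.10, adjusted p = 0.00217). All 3 obstruction/vehicle arrays were lower than all 3 sham/vehicle arrays.

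Dnajc10 (ERdj5), a disulfide reductase that unfolds proteins bound for degradation, had -1.10, -0.93 and -0.66 in obstruction/vehicle and -0.41, -0.10 and -0.07 in sham/vehicle (-0.70 ± 0.16, adjusted p = 0.0121). Its other probe moved alike but did not pass (-0.68, adjusted p = 0.0828). Pdia3, the disulfide isomerase that works on glycoproteins with calnexin and calreticulin, had -0.89, -0.70 and -0.53 in obstruction/vehicle and -0.45, -0.26 and -0.27 in sham/vehicle (-0.38 ± 0.11, adjusted p = 0.0381). Sec61b, a subunit of the Sec61 channel, differed by -0.55 ± 0.16, adjusted p = 0.0418. None of these 3 genes overlapped between the groups, but all 3 lost the call without sham/vehicle replicate 2, sham/vehicle replicate 3 or obstruction/vehicle replicate 1. Pdia3 lost it also without sham/Eviprostat replicate 2 or any 1 of the obstruction/Eviprostat arrays, and Sec61b also without those 4, sham/Eviprostat replicate 3 or obstruction/vehicle replicate 2. Over these left-out arrays the adjusted p ran from 0.0538 to 0.0611 for Dnajc10, 0.0525 to 0.144 for Pdia3 and 0.051 to 0.17 for Sec61b. The count of genes called, 11, was 6 without sham/vehicle replicate 2, 6 without sham/vehicle replicate 3 and 7 without obstruction/vehicle replicate 1.

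Across the 24 folding, degradation and translocon genes the median difference was -0.29, against -0.01 over all probes, and 19 were negative (19 with median centring, 21 with the scanner's log ratio and 21 with Cy5 alone). Of all 36102 probes, 18957 were negative (15606 with median centring, 21125 with the scanner's log ratio and 21533 with Cy5 alone). The negative genes numbered 19, 18 and 20 on slides 1, 2 and 3. Of the 24, 6 were called lower and 0 higher. Non-overlap was wider than the calls: 10 of the 24 genes had all obstruction/vehicle arrays below all sham/vehicle arrays and 0 had them above, against 11.9% and 12.9% of all probes. Pdia6, a disulfide isomerase, passed as lower on its dimmer probe (-0.56, adjusted p = 0.0326) and not on its brightest (-0.10 ± 0.25, adjusted p = 0.856). None of the 5 degradation genes passed the test, the differences running from -0.32 for Derl1, a channel component of the degradation pathway, to 0.20 for Edem1, a lectin that hands over misfolded glycoproteins.

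For Hspa5 the arrays differed by slide as well as by group. BiP (Hspa5) had 0.21, -0.68 and -0.36 in obstruction/vehicle and 0.80, -0.20 and -0.11 in sham/vehicle. Replicate 1 was the highest array of both groups, the groups overlapped and the test was not passed (-0.44 ± 0.33, adjusted p = 0.476), although obstruction/vehicle was the lower on all 3 slides, with differences of -0.59, -0.48 and -0.25. With the replicate number as a block Hspa5 passed (adjusted p = 0.00222), as did the calcium-binding lectin chaperone calreticulin, Calr (-0.80, adjusted p = 7.18e-06; without the block 0.067). The Calr groups did not overlap, with differences of -0.84, -0.84 and -0.72 on slides 1, 2 and 3. For Calr too, replicate 1 was the highest array of both groups. The block also added calls for P4hb, Creld2, Derl1, Ssr3 and Dnajb9 as lower. Hspa5 and Calr are described here because of their block results, seen in their values.

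The next comparison asked what Eviprostat does in obstructed rats. Of the 15 chaperones 6 were higher in obstruction/Eviprostat than in obstruction/vehicle, 0 were lower and 9 did not pass, and of the 7 stress genes 3 were lower and 1 higher. Dnajc3, Hyou1, Manf, Herpud1, Dnajb9, Creld2, Ern1, Sec61b and Dnajb11 were between 1.43-fold and 2-fold higher, and Ppp1r15a, Trib3 and Ddit3 between 1.65-fold and 2.06-fold lower. That is 9 higher and 3 lower of the 31 genes, against 3.9% of all probes higher and 5.89% lower (9.79% in either direction). Both comparisons use the same 3 obstruction/vehicle arrays, so a value of theirs that is off would enter both with opposite signs. The split was 0 and 0 with median centring, 21 higher and 3 lower with the scanner's log ratio, and 18 higher and 3 lower with the replicate block. Of all 36102 probes, 132 were higher and 1197 lower with median centring. The scanner's log ratio gave 7821 higher and 5702 lower, and the block 4121 and 4373.

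**Figure D3:**
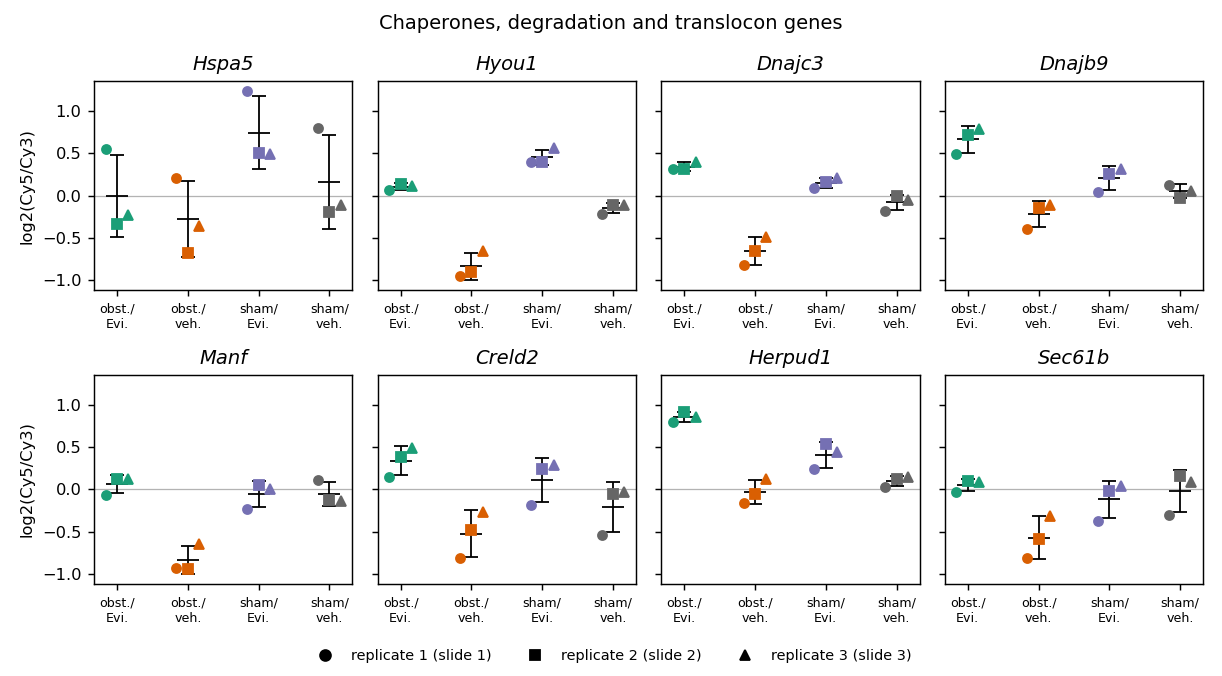
Log2 ratio of Cy5 over Cy3 on each array for 8 chaperone, degradation and translocon genes; symbols mark the replicate and its slide, and bars the mean ± SD of the 3 arrays. For Hyou1, Dnajc3, Manf, Creld2, Dnajb9, Herpud1 and Sec61b every obstruction/Eviprostat array lies above every obstruction/vehicle array, whereas for Hspa5 replicate 1 stands above replicates 2 and 3 in all 4 groups.

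Dnajc3 had a log2 ratio of 0.31, 0.31 and 0.40 in obstruction/Eviprostat, against the -0.82, -0.65 and -0.49 in obstruction/vehicle given above. This was the smallest adjusted p of the 31 genes in this comparison (1.00 ± 0.10, adjusted p = 4.11e-05; the probe lies on chromosome 15, 103930873 to 103930932, build rn3). Hyou1 had 0.07, 0.14 and 0.11 in obstruction/Eviprostat (0.94 ± 0.09, adjusted p = 4.96e-05). Its dimmer probe did not pass (0.24, adjusted p = 0.133). Manf had -0.06, 0.12 and 0.12 (0.90 ± 0.12, adjusted p = 0.000405), and its other probe passed as well (0.86, adjusted p = 0.00884). For all 3 genes the obstruction/Eviprostat arrays lay above the obstruction/vehicle arrays on every slide and without overlap.

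Of the 9 genes higher here, Herpud1, Dnajb9, Creld2 and Dnajb11 had not passed in obstruction/vehicle against sham/vehicle. Their differences there were -0.13 ± 0.10, adjusted p = 0.501 for Herpud1, -0.27 ± 0.11, adjusted p = 0.167 for Dnajb9, -0.31 ± 0.18, adjusted p = 0.337 for Creld2 and -0.09 ± 0.13, adjusted p = 0.734 for Dnajb11. The Dnajb9 arrays of those groups did not overlap, the replicate block gave an adjusted p of 0.047, and its other probe had the opposite sign (0.15, adjusted p = 0.725). Herpud1, a membrane protein that assembles the degradation complex, had 0.79, 0.92 and 0.86 in obstruction/Eviprostat and -0.16, -0.06 and 0.13 in obstruction/vehicle (0.89 ± 0.10, adjusted p = 0.000146; other probe 0.79, adjusted p = 0.0344). Dnajb9 (ERdj4), a co-chaperone of BiP that keeps Ern1 inactive, had 0.49, 0.72 and 0.79 in obstruction/Eviprostat and -0.39, -0.14 and -0.11 in obstruction/vehicle (0.88 ± 0.11, adjusted p = 0.000389; other probe 0.85, adjusted p = 0.0248). Both genes were highest in obstruction/Eviprostat of all 4 groups, with no overlap with any other group.

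Creld2, a secreted ER stress protein with disulfide isomerase activity, differed by 0.86 ± 0.18, adjusted p = 0.0107, and Dnajb11 (ERdj3), a co-chaperone that is secreted with its clients, by 0.52 ± 0.13, adjusted p = 0.0289. Sec61b differed by 0.62 ± 0.16, adjusted p = 0.0266. All 3 had no overlap between obstruction/Eviprostat and obstruction/vehicle. Dnajb11 and Sec61b each failed the test without obstruction/vehicle replicate 1 or any 1 of the 3 obstruction/Eviprostat arrays (adjusted p from 0.0525 to 0.119), and Creld2 without obstruction/Eviprostat replicate 3 (0.79, adjusted p = 0.0578). The count of 12 genes called fell to 6 without obstruction/Eviprostat replicate 3 and to 8 without obstruction/Eviprostat replicate 1, obstruction/Eviprostat replicate 2 or obstruction/vehicle replicate 1. Pdia6, which limits Ern1 and Eif2ak3 signalling, passed as higher on its dimmer probe (0.75, adjusted p = 0.00831) and not on its brightest (0.52 ± 0.25, adjusted p = 0.24), whose replicate 1 stood highest in all 4 groups.

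Over the 24 folding, degradation and translocon genes the median difference was 0.38, against 0.01 for all probes, and 23 were positive, also with the scanner's log ratio and with Cy5 alone, and 24 with median centring. Of all 36102 probes, 18880 were positive (20906 with the scanner's log ratio, 21577 with Cy5 alone and 16020 with median centring). The positive genes numbered 22, 22 and 23 on slides 1, 2 and 3, and 20 of the 24 were higher on every slide. Of the 24, 12 had all obstruction/Eviprostat arrays above all obstruction/vehicle arrays and 0 had them below, against 12% and 12.4% of all probes. The 1 negative gene was Canx, the membrane lectin calnexin (-0.02 ± 0.12, adjusted p = 0.961). The block for replicate number added calls for Hspa5 (0.27, adjusted p = 0.0331), Calr (0.45, adjusted p = 0.000742), Pdia3, Pdia4, Pdia6, Dnajc10, Derl1, Ssr1 and Ssr3, all as higher.

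Of the stress genes, Ppp1r15a had 0.38, 0.29 and 0.34 in obstruction/Eviprostat and so lay below all 3 obstruction/vehicle arrays (-1.04 ± 0.11, adjusted p = 8.96e-05). Trib3 had 0.39, 0.73 and 0.55 (-0.87 ± 0.20, adjusted p = 0.0151) and Ddit3 0.15, 0.48 and 0.39 (-0.72 ± 0.18, adjusted p = 0.0258). Neither overlapped with obstruction/vehicle, but the differences on slides 1, 2 and 3 were -1.02, -0.25 and -1.33 for Trib3 and -1.03, -0.07 and -1.06 for Ddit3, smallest on slide 2 for both. On the 2 slides scanned on the same day neither passed (-0.79, adjusted p = 0.0854 for Trib3, and -0.56, adjusted p = 0.184 for Ddit3). Ddit3 also lost the call without any 1 of the obstruction/Eviprostat arrays and without obstruction/vehicle replicate 1 or 3, and Trib3 without obstruction/Eviprostat replicate 1 or 3, with adjusted p from 0.0551 to 0.0987.

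Ern1 was higher. It had -0.13, -0.07 and -0.12 in obstruction/Eviprostat, all above the obstruction/vehicle arrays (0.74 ± 0.17, adjusted p = 0.0169). Its call was lost without obstruction/Eviprostat replicate 2 or 3 or obstruction/vehicle replicate 1 (adjusted p from 0.0604 to 0.068), with differences from 0.57 to 0.74. Atf6 did not follow: it had -0.79, -0.44 and -0.59 in obstruction/Eviprostat, which overlapped with obstruction/vehicle (-0.12 ± 0.16, adjusted p = 0.737). Atf4 had 0.15, 0.28 and 0.29 and Eif2ak3 -0.13, 0.08 and 0.04 in obstruction/Eviprostat, and neither passed (0.07 ± 0.10, adjusted p = 0.756 for Atf4 and 0.14 ± 0.10, adjusted p = 0.448 for Eif2ak3).

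**Figure D4:**
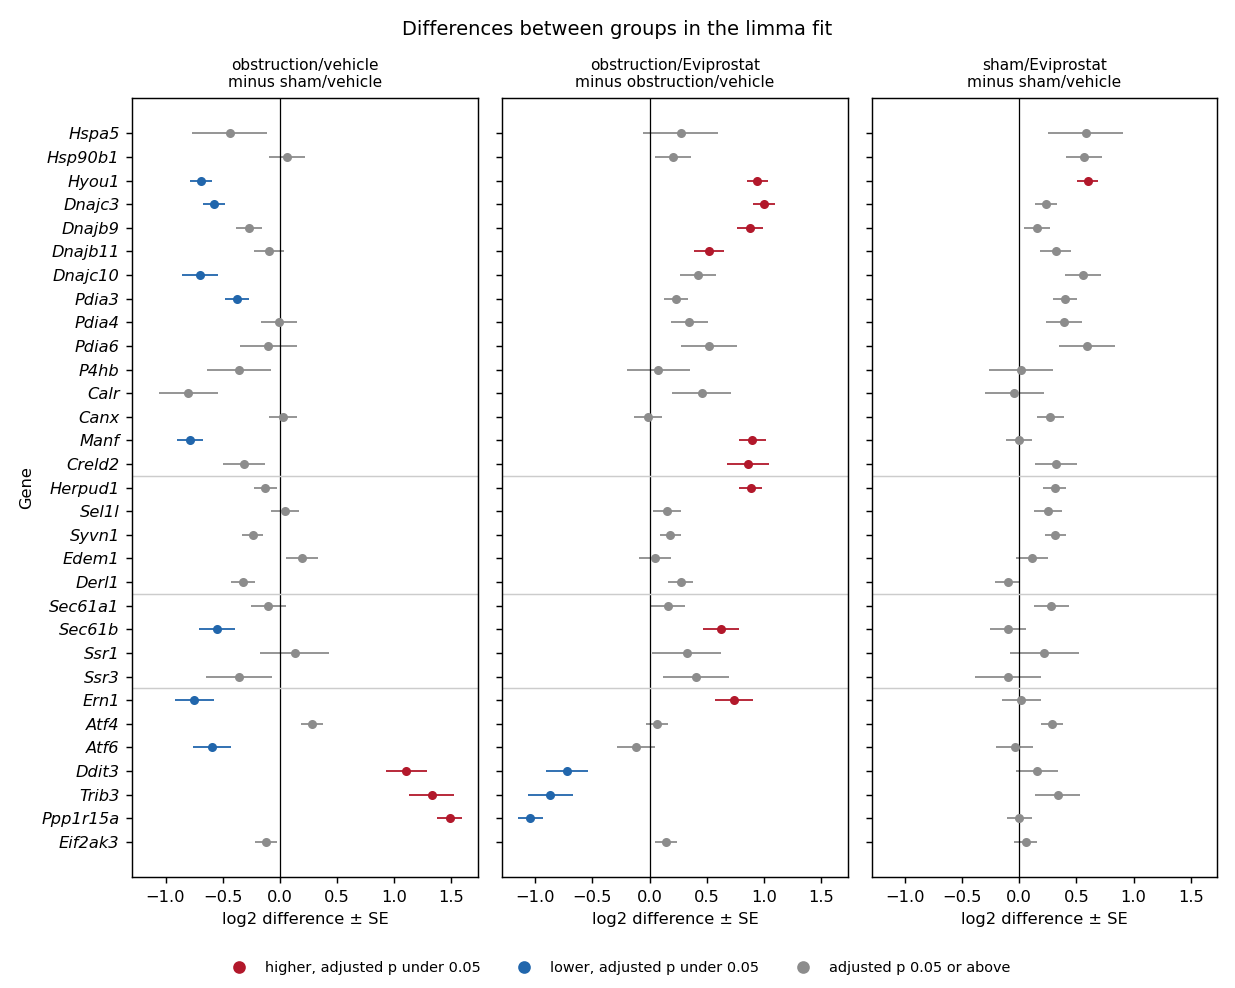
Log2 differences ± SE in the limma fit for the 31 genes (rows, in the order chaperones, degradation, translocon and stress genes from top to bottom) in 3 comparisons (panels); red and blue mark genes called higher and lower, grey the rest. The chaperone rows lie mostly left of 0 in the left panel and right of 0 in the middle panel, the 3 stress targets do the opposite, and only Hyou1 is called in the right panel.

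In sham rats 1 gene passed the test on its brightest probe: Hyou1 was 1.51-fold higher in sham/Eviprostat than in sham/vehicle. Its log2 ratio was 0.40, 0.40 and 0.56 in sham/Eviprostat, against -0.21, -0.11 and -0.11 in sham/vehicle, without overlap (0.60 ± 0.09, adjusted p = 0.00677). Its dimmer probe did not pass (0.34, adjusted p = 0.112). The call was lost with Cy5 alone (0.45, adjusted p = 0.193) and with median centring (0.58, adjusted p = 1). Without sham/Eviprostat replicate 1 or obstruction/vehicle replicate 1 the count was 2. Counts were 1 higher and 0 lower of 31, against 0.87% and 0.659% of all probes (1.53% in either direction).

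Of the 15 chaperones 13 had positive differences, 12 of them without passing. Hsp90b1, the ER form of Hsp90 (GRP94), had 0.03, 0.37 and 0.45 in sham/Eviprostat and -0.55, -0.20 and -0.09 in sham/vehicle (0.56 ± 0.16, adjusted p = 0.123; other probe 0.15, adjusted p = 0.885). Dnajc10 had 0.06, 0.51 and 0.51 in sham/Eviprostat (0.56 ± 0.16, adjusted p = 0.129; other probe 0.47, adjusted p = 0.535) and Pdia3 -0.05, 0.10 and 0.16 (0.40 ± 0.11, adjusted p = 0.102). For these 3 genes the sham/Eviprostat arrays lay above the sham/vehicle arrays without overlap. Syvn1, the ubiquitin ligase HRD1, had 0.28, 0.32 and 0.34 in sham/Eviprostat and 0.08, 0.0032 and -0.10 in sham/vehicle (0.32 ± 0.09, adjusted p = 0.14). Herpud1 had 0.24, 0.53 and 0.45 in sham/Eviprostat and 0.03, 0.13 and 0.14 in sham/vehicle (0.31 ± 0.10, adjusted p = 0.221), and neither gene overlapped between these groups.

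The median of the 24 folding, degradation and translocon genes was 0.28, against 0.001 for all probes, with 19 positive (18 with median centring, 20 with the scanner's log ratio and 19 with Cy5 alone). Of all 36102 probes, 18194 were positive (15001 with median centring, 17534 with the scanner's log ratio and 17635 with Cy5 alone). Without overlap, 12 of the 24 were higher and 1 lower, against 8.55% and 10.5% of all probes. The replicate block raised the count from 1 to 10, all higher: beside Hyou1 these were Hspa5 (0.58, adjusted p = 0.00135), Hsp90b1 (0.56, adjusted p = 0.0022), Pdia3, Pdia4, Pdia6, Dnajb11, Dnajc10, Creld2 and Herpud1. Over all 36102 probes the block called 1157 higher and 1124 lower. Hspa5 had 1.24, 0.50 and 0.49 in sham/Eviprostat, above sham/vehicle on each slide by 0.44, 0.70 and 0.61.

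The stress genes showed no call in sham rats, and 0 of 7 passed. Ppp1r15a had -0.29, -0.04 and 0.02 in sham/Eviprostat (0.0018 ± 0.11, adjusted p = 0.999), Ddit3 had 0.04, 0.17 and 0.12 (0.16 ± 0.18, adjusted p = 0.903) and Trib3 0.17, 0.61 and 0.52 (0.34 ± 0.20, adjusted p = 0.649). The Ppp1r15a and Trib3 arrays overlapped with sham/vehicle, while those of Ddit3 lay slightly above it. Ern1 had -0.31, 0.04 and 0.05, Atf6 -0.09, 0.25 and 0.03 and Eif2ak3 -0.10, 0.07 and 0.12 in sham/Eviprostat, all overlapping with sham/vehicle. Atf4 had 0.19, 0.14 and 0.22, above all sham/vehicle arrays (0.29 ± 0.10, adjusted p = 0.237).

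Whether the drug acted differently in obstructed and in sham rats was tested by the difference of the 2 drug effects. It passed for 6 of the 31 genes, 4 higher and 2 lower, against 3.78% and 4.89% of all probes (8.66% in either direction). The effect in obstructed rats exceeded that in sham rats for Manf (0.90 ± 0.16, adjusted p = 0.00525), Dnajc3 (0.77 ± 0.14, adjusted p = 0.00459), Dnajb9 (0.73 ± 0.16, adjusted p = 0.0158) and Herpud1 (0.58 ± 0.14, adjusted p = 0.0273). It lay below that in sham rats for Trib3 (-1.21 ± 0.28, adjusted p = 0.0191) and Ppp1r15a (-1.04 ± 0.16, adjusted p = 0.00154). For each of the 6 the sign was the same on all 3 slides, which is no separate support, since the same values gave the calls. Hyou1, raised by the drug in both operations on its brightest probe only, did not pass (0.35 ± 0.13, adjusted p = 0.144). Its dimmer probe had the opposite sign (-0.10, adjusted p = 0.736). Ddit3 did not pass either (-0.88 ± 0.26, adjusted p = 0.0555). With the replicate block 14 genes passed, 11 higher and 3 lower, including Hyou1 (adjusted p = 0.0396) and Ddit3 (adjusted p = 0.0181), and with median centring 0 did. Over all 36102 probes the block called 3807 higher and 4114 lower, and median centring 107 and 910. Without obstruction/Eviprostat replicate 3 the count among the 31 genes was 3, and without sham/vehicle replicate 2 or sham/Eviprostat replicate 3 it was 4. Herpud1 did not pass without any 1 of obstruction/Eviprostat replicates 2 and 3, obstruction/vehicle replicate 1, sham/Eviprostat replicate 3 and sham/vehicle replicates 2 and 3 (adjusted p from 0.0521 to 0.0784). Trib3 did not without obstruction/Eviprostat replicate 3, sham/Eviprostat replicate 2 or 3 or sham/vehicle replicate 2 (adjusted p from 0.0501 to 0.0542), and Dnajb9 without obstruction/Eviprostat replicate 3 (0.67, adjusted p = 0.0505).

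Obstruction under Eviprostat was set against sham under Eviprostat to see what remained of the obstruction difference. Only 3 of the 31 genes passed: Herpud1 was higher (0.45 ± 0.10, adjusted p = 0.0408; other probe 0.41, adjusted p = 0.5) and Dnajc10 (-0.84 ± 0.16, adjusted p = 0.0148) and Pdia3 (-0.54 ± 0.11, adjusted p = 0.019) were lower, against 0.969% of all probes higher and 1.31% lower (2.28% in either direction). Dnajc10 had -0.58, -0.56 and -0.28 in obstruction/Eviprostat, all below the sham/Eviprostat arrays given above, and Pdia3 had -0.52, -0.44 and -0.45, likewise without overlap. The second Dnajc10 probe passed too (-0.99, adjusted p = 0.048). Atf6 differed by -0.67 ± 0.16, adjusted p = 0.0596, Syvn1 by -0.37 ± 0.09, adjusted p = 0.0574, with -0.19, -0.02 and 0.03 in obstruction/Eviprostat, and Ppp1r15a by 0.44 ± 0.11, adjusted p = 0.0684. None of these 3 overlapped between the groups or passed. In all, 4 of the 31 genes were higher and 6 lower without overlap, against 12.1% and 9.57% of all probes. The replicate block gave 3 higher and 7 lower, adding Hspa5 (-0.75, adjusted p = 0.000154), Atf6, Hyou1, Syvn1 and Calr as lower and Ppp1r15a and Dnajb9 as higher while Herpud1, Dnajc10 and Pdia3 kept their calls. Over all 36102 probes the block called 1599 higher and 1558 lower. The 3 calls were fragile: the count was 0 without any 1 of sham/Eviprostat replicate 2 or 3 or obstruction/Eviprostat replicate 1 or 2, it was 1 without obstruction/Eviprostat replicate 3, and it was 5, 6 and 6 without obstruction/vehicle replicates 1, 2 and 3. Herpud1 kept its call here only without an obstruction/vehicle array, and its adjusted p ran from 0.0532 to 0.191 without 1 array of another group.

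Against sham/vehicle, obstruction/Eviprostat passed for Herpud1 alone (0.76 ± 0.10, adjusted p = 0.00764; other probe 0.83, adjusted p = 0.231), 1 higher and 0 lower of 31, against 0.175% and 0.119% of all probes (0.294% in either direction). Dnajb9 (0.61 ± 0.11, adjusted p = 0.0528), Dnajc3 (0.42 ± 0.10, adjusted p = 0.154), Ppp1r15a (0.44 ± 0.11, adjusted p = 0.231), Atf4 (0.35 ± 0.10, adjusted p = 0.349) and Atf6 (-0.71 ± 0.16, adjusted p = 0.161) did not pass. The obstruction/Eviprostat arrays of the first 4 lay above, and those of Atf6 below, all sham/vehicle arrays. In all, 11 genes lay above and 1 below without overlap, against 8.82% and 8.45% of all probes. Herpud1 lost the call without obstruction/Eviprostat replicate 2 or 3 (adjusted p = 0.0556 and 0.0579), which left 0 genes. The count was 2 without obstruction/Eviprostat replicate 1, sham/Eviprostat replicate 1 or obstruction/vehicle replicate 2, and 3 without obstruction/vehicle replicate 1. The replicate block gave 9 higher and 2 lower, against 535 higher and 362 lower of all 36102 probes.

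The neighbouring genes of the pathway were read from 5 further lists of 103 genes (folding, translocation and glycosylation, degradation, stress signalling and export), of which 92 were tested. In obstruction/vehicle against sham/vehicle 11 were higher and 14 lower, against 7.15% and 4.45% of all probes, with a median of -0.11 against -0.01. Of the 26 stress signalling genes 7 were higher, 2 lower and 17 not called, with 15 negative differences and a median of -0.06. The higher ones included Nupr1 (1.08 ± 0.12, adjusted p = 0.000102), a stress-induced chromatin protein, and Cebpb (1.68 ± 0.20, adjusted p = 0.000173), a transcription factor that pairs with Ddit3. Ero1a, the oxidase that feeds disulfide bonds to the isomerases and is also a hypoxia target, was highest of all (2.89 ± 0.30, adjusted p = 6.33e-05). The lower genes included Selenos (-0.94 ± 0.14, adjusted p = 0.000757), which anchors the degradation ATPase, Dad1 (-0.70 ± 0.10, adjusted p = 0.000792), a subunit of the oligosaccharyl transferase, and the prolyl isomerase gene Fkbp11 (-0.64 ± 0.10, adjusted p = 0.000936).

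In obstruction/Eviprostat against obstruction/vehicle 14 of the 92 were higher and 5 lower, against 3.9% and 5.89% of all probes, with a median of 0.14 against 0.01. Selenos (1.22 ± 0.14, adjusted p = 0.000122), Fkbp11 (0.82 ± 0.10, adjusted p = 0.000167) and Kdelr3 (0.80 ± 0.11, adjusted p = 0.000505), a receptor that returns escaped ER proteins, were higher. Ero1a (-2.69 ± 0.30, adjusted p = 0.000134), Cebpb (-1.53 ± 0.20, adjusted p = 0.000436) and Atf3 (-2.14 ± 0.35, adjusted p = 0.00228), a stress transcription factor, were lower. Of the 17 translocation and glycosylation genes 5 were higher and 0 lower, and of the 26 stress signalling genes 0 were higher and 4 lower.

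Sham/Eviprostat against sham/vehicle had 2 of the 92 higher and 0 lower, against 0.87% and 0.659% of all probes: Nupr1 (0.75 ± 0.12, adjusted p = 0.00799) and the disulfide isomerase Pdia5 (0.56 ± 0.10, adjusted p = 0.0157). Obstruction/Eviprostat against sham/Eviprostat had 0 higher and 3 lower, against 0.969% and 1.31% of all probes: Pdia5 (-0.89 ± 0.10, adjusted p = 0.000565), the asparagine synthetase Asns (-0.49 ± 0.09, adjusted p = 0.0103) and the degradation ATPase Vcp (-0.72 ± 0.16, adjusted p = 0.0326). Against sham/vehicle, obstruction/Eviprostat had Nupr1 alone as higher (1.03 ± 0.12, adjusted p = 0.0028) and 0 lower, against 0.175% and 0.119%. The difference of the drug effects passed for 6 genes as higher, led by Selenos (1.42 ± 0.19, adjusted p = 0.000717), and for 7 as lower, led by Ero1a (-2.83 ± 0.43, adjusted p = 0.00156), against 3.78% and 4.89% of all probes.

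Markers of several cell types moved with these results. In RNA of whole tissue, fewer cells of a type and less RNA per cell cannot be told apart. Of 12 luminal epithelial markers, 5 were lower and 0 higher in obstruction/vehicle than in sham/vehicle (median -0.26), against 4.45% and 7.15% of all probes. In obstruction/Eviprostat against obstruction/vehicle 5 were higher and 0 lower (median 0.74), against 3.9% and 5.89% of all probes. The luminal mean log2 ratio ranged from 0.13 to 0.28 in obstruction/Eviprostat, from -0.66 to -0.33 in obstruction/vehicle, from -0.0012 to 0.12 in sham/Eviprostat and from -0.06 to 0.03 in sham/vehicle. It thus had the order of the chaperones between the obstruction groups, while 0 of 12 passed in sham/Eviprostat against sham/vehicle (0.87% of all probes were higher and 0.659% lower). Within obstruction/vehicle the luminal mean was lowest on replicate 2. Of the 5 chaperones called lower in that group, Manf was lowest on replicate 2 too (-0.936, against -0.930 on replicate 1). Hyou1, Dnajc10, Dnajc3 and Pdia3 were lowest on replicate 1, as they were in sham/vehicle. As differences from sham/vehicle on the same slide, Hyou1, Dnajc10 and Dnajc3 were lowest on slide 2 (-0.79, -0.83 and -0.65). Manf was lowest on slide 1 (-1.04), and Pdia3 was nearly equal on slides 1 and 2 (-0.440 and -0.437). Whether the chaperones follow the luminal markers was not tested.

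Infiltrating and stromal markers ran with the stress targets. All 11 macrophage markers were higher in obstruction/vehicle than in sham/vehicle (median 1.73), and 10 of 11 were lower in obstruction/Eviprostat than in obstruction/vehicle (median -1.69). Their mean ranged from 0.39 to 0.42 in obstruction/Eviprostat, from 1.78 to 2.25 in obstruction/vehicle, from -0.03 to 0.01 in sham/Eviprostat and from -0.04 to -0.02 in sham/vehicle. Obstruction/vehicle replicate 2 was the lowest of its group for these markers, as it was for Ddit3, Trib3 and Ppp1r15a. This was not particular to macrophage markers. That array was also lowest for the luminal, fibroblast, smooth muscle, seminal vesicle, urothelial, and plasma and B cell means, and highest for the skeletal muscle mean. Fibroblast markers were 6 of 7 higher in obstruction/vehicle than in sham/vehicle (median 2.06) and 6 of 7 lower in obstruction/Eviprostat than in obstruction/vehicle (median -1.83). Smooth muscle markers were 4 of 4 higher (median 1.09) and then 3 of 4 lower (median -0.67), and urothelial markers 2 of 4 higher (median 1.58) and 2 of 4 lower (median -1.78). Of all probes, 7.15% were higher in obstruction/vehicle than in sham/vehicle, and 5.89% lower in obstruction/Eviprostat than in obstruction/vehicle.

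Markers of neighbouring tissue differed most. Of 6 seminal vesicle genes, 5 were higher in obstruction/vehicle than in sham/vehicle (median 5.51), 5 were lower in obstruction/Eviprostat than in obstruction/vehicle (median -4.76), and 5 were higher in sham/Eviprostat than in sham/vehicle (median 4.20). Their mean ranged from 0.62 to 0.87 in obstruction/Eviprostat, from 4.49 to 4.95 in obstruction/vehicle, from 4.18 to 4.26 in sham/Eviprostat and from 0.05 to 0.12 in sham/vehicle. Hyou1, the only gene called in sham rats, thus lay in a comparison with high seminal vesicle markers, and 5 of 6 skeletal muscle (median 1.25), 2 of 7 fibroblast (median 0.63) and 2 of 4 smooth muscle markers (median 0.64) were higher there too. Of 6 tested plasma and B cell markers, another secretory cell type, 1 was higher in obstruction/vehicle than in sham/vehicle and 1 lower in obstruction/Eviprostat than in obstruction/vehicle, with medians of -0.03 and 0.04. Skeletal muscle markers were 5 of 6 lower in obstruction/vehicle than in sham/vehicle (median -1.85) and 3 of 6 higher in obstruction/Eviprostat than in obstruction/vehicle (median 0.77). In obstruction/Eviprostat against sham/Eviprostat, 5 of 6 skeletal muscle and 5 of 6 seminal vesicle markers were lower (medians of -2.04 and -3.51), beside the lower Dnajc10 and Pdia3. In the same comparison 3 of 11 macrophage markers (median 0.51) and 1 of 12 luminal markers were higher, and 1 of 4 smooth muscle markers was lower. Of all probes, 7.15% were higher and 4.45% lower in obstruction/vehicle than in sham/vehicle. The shares were 3.9% and 5.89% in obstruction/Eviprostat against obstruction/vehicle. They were 0.87% and 0.659% in sham/Eviprostat against sham/vehicle, and 0.969% and 1.31% in obstruction/Eviprostat against sham/Eviprostat. The part of the tissue and cell type markers in the results was not tested.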

How the data were processed

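Prostate RNA was measured with Agilent arrays of 2 colours, 12 in all and 3 a group. Spot and local background intensities were deposited by the authors as Agilent Feature Extraction 9.5.1.1 wrote them, per the file headers. The deposited log10 ratio is Cy5 over Cy3 processed signal, per the file headers, and the deposited processed values equal it (largest difference 0). From the intensities, background was corrected with normexp (offset 50) and log2 ratios were normalized by loess within each array in limma 3.58.1 under R 4.3.3 (with Python 3.11.15, pandas 2.3.3, matplotlib 3.10.9). Control and outlier spots were left out. Of 41012 probes, 36102 with Cy5 well above background on at least 3 arrays were kept. Array positions are those of build rn3, per the file headers.

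Names were updated through RefSeq gene names on GRCr8: of all probes, 20970 kept the array's name, 10735 were named by accession, 5577 by current symbol and 3730 by synonym. Among several probes of a gene the brightest was taken. The members, gene lists and marker lists were chosen with earlier results of these data known, as were the alternatives. All listed members may be named. Values on every array are given for the 6 smallest adjusted p in a comparison and for stress genes, and up to 3 genes per direction are named from the further lists.

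Every comparison came from a single limma model (12 arrays, a mean for each group, 8 residual degrees of freedom), with Benjamini-Hochberg adjustment over all kept probes and a threshold of 0.05. This model has no term for the slide, so differences between slides stay in its spread, and only the replicate block takes them out. The fit was tested on simulated data. Replicate numbers pair the arrays, since each number is 1 slide per the file headers. Same-numbered arrays deviated together (correlations of deviations from 0.155 to 0.779 over 18 pairs, against -0.702 to 0.557 over 36 other pairs). The correlations mainly set replicate 1, scanned on another day, apart. Pairs of a replicate 2 with a replicate 3 array were positive as well (0.0888 to 0.557), so slides 2 and 3 are not clearly told apart by them. The number of arrays limits the precision. Alternatives were median centring, the scanner's log ratio, Cy5 alone, other filters, the replicate block, same-day slides, the compared groups alone, the mean over probes, each array left out and, added after seeing the data, the array's current names alone.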

Additional observations from a re-analysis of the deposited data

Results flagged for a closer look

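The effect of Eviprostat differed between obstructed and sham rats for 6 genes, by the test of that difference in limma. The difference of the 2 drug effects was 0.77 for Dnajc3, 0.73 for Dnajb9, 0.90 for Manf and 0.58 for Herpud1, each larger in obstructed rats and positive on 3 of 3 slides. It was -1.21 for Trib3 and -1.04 for Ppp1r15a, negative on 3 of 3 slides. The difference draws on all 12 arrays, as do its signs by slide, which are thus no separate support. Each of its calls was lost with median centring in place of loess. On the dimmer probes of Dnajb9, Manf and Herpud1 it was 0.31, 0.56 and 0.36 and did not pass.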

How the results depend on the processing

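The 6 comparisons gave 34 calls on single genes, and no alternative turned the sign of any of them. All 34 were kept with the scanner's log ratio, with no filter on dim probes, with Cy5 well above background on all 12 arrays and with the replicate block. Median centring in place of loess kept 3 of 34, those of Ddit3, Trib3 and Ppp1r15a in obstruction/vehicle against sham/vehicle, and the lost ones had like sizes (Dnajc3 0.99 and Hyou1 0.95 in obstruction/Eviprostat against obstruction/vehicle). The cause was not tested.

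Comparisons are numbered here: 1 is the obstruction difference under vehicle, 2 the Eviprostat difference in obstructed rats, 3 that in sham rats, 4 the obstruction difference under Eviprostat, 5 obstruction/Eviprostat against sham/vehicle and 6 the difference of the drug effects. From 1 to 6, 11, 12, 1, 3, 1 and 6 members were called. With median centring they were 3, 0, 0, 0, 0 and 0, and with the scanner's log ratio 23, 24, 13, 11, 11 and 19. With the replicate block, which pairs the arrays of a slide, they were 19, 21, 10, 10, 11 and 14. Leaving out 1 array gave 6 to 12, 6 to 12, 1 to 2, 0 to 6, 0 to 3 and 3 to 8. Cy5 alone gave 0 in comparison 3 and 3 in comparison 5. On the same-day slides comparisons 3, 4 and 5 had 5, 6 and 3. With the compared groups alone comparison 1 had 7 and comparison 5 had 3, and comparison 6, which uses all 4 groups, has no such setting. With the mean over probes comparisons 3, 4 and 5 had 3, 5 and 2, and with Cy5 well above background on all 12 arrays comparison 5 had 2. The array's current names alone gave 9, 10, 1, 3, 1 and 5.

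Over all probes, calls in the same order were 4191, 3536, 552, 823, 106 and 3127. They were 1788, 1329, 64, 140, 10 and 1017 with median centring, 14483, 13523, 3423, 4279, 1924 and 11713 with the scanner's log ratio, and 9125, 8494, 2281, 3157, 897 and 7921 with the block. Cy5 alone gave 6284 and 5377 in comparisons 1 and 2 and 288 in comparison 5. Same-day slides gave 1135, 2275 and 339 in comparisons 3, 4 and 5, and the compared groups alone gave 1833, 1768 and 269 in comparisons 1, 2 and 5. Leaving out 1 array gave 2403 to 7203, 1889 to 6374, 231 to 906, 353 to 1171, 36 to 191 and 1819 to 5857.

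Signal over background limits what the dimmest genes, Canx, Eif2ak3, Sel1l and Ddit3, can show.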
